A study of Rattus norvegicus with 9 samples.

Results

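Retinoid X receptors (RXRs) are ligand-activated transcription factors that bind DNA mostly as the common partner in pairs with other nuclear receptors. The genes described here are the RXR genes Rxra, Rxrb and Rxrg, the retinoic acid receptors Rara and Rarb, the liver X receptors Nr1h3 and Nr1h2, the thyroid hormone receptor Thra, and the peroxisome proliferator-activated receptors (PPARs) Ppard and Pparg. They were taken by name, as every probe of the authors' normalized table whose platform gene symbol was on this list. That gave 10 probes for 9 of the 10 genes, among 10552 probes in all. Rarb had 2 probes, each other gene had 1, and no probe in the table carried the symbol Pparg.

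The samples were lesions of the rat caudal cerebellar peduncle, a white matter tract. Per the labels, Sprague Dawley rats aged 12 weeks when lesioned had this tract demyelinated by 0.1% ethidium bromide, a DNA-binding toxin that kills glia where it is injected, and the lesion was cut out of frozen brain by laser capture at 5, 14 or 28 days post lesion (dpl). Each time point has 3 arrays, 9 in all, and every one comes from lesioned tissue, so the comparisons are between lesion ages and none is against intact white matter. The animals also differ in age by the same days, and lesion age and animal age cannot be told apart.

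In the pairs that RXRs form, retinoic acid, oxysterols, thyroid hormone or fatty acids bind the partner, and without ligand several of these pairs hold corepressor complexes on their target genes. In white matter these receptors are known for acting on oligodendrocyte differentiation (RXR and thyroid hormone receptors) and on the handling of cholesterol and lipid debris by phagocytes (liver X receptors and PPARs). The study's title names RXR gamma, the product of Rxrg.

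The stretch just before the annotated start is shown for receptors that moved differently in these lesions, Rxrg and Thra, which rose, and Rxra, whose level stayed close to background. Each run is 93 bases from RefSeq, build GRCr8, 5′ to 3′ on the strand of the gene, and capitals mark GC boxes (GGGCGG or its reverse complement CCGCCC).
Rxrg, chr13:82276237-82276329, plus strand: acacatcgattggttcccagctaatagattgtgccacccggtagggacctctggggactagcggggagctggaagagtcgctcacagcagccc
Rxra, chr3:31387799-31387891, plus strand: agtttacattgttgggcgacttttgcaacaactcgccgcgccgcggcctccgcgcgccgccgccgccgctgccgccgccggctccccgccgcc
Thra, chr10:84198048-84198140, plus strand: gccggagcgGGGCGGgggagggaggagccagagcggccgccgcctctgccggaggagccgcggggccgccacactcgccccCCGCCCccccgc

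The G and C content of these windows was 59.1% for Rxrg, 75.3% for Rxra and 86.0% for Thra. Thra had 2 GC boxes and the others 0. A GC box was found on either strand in 19.2% of the 25479 RefSeq windows of this length. The nuclear receptor half-site AGGTCA (or TGACCT) and the TATA box TATAAA (or TTTATA), which occur in 5.97% and 5.69% of those windows, were in none of the 3. RefSeq's promoter table had an entry for 9 of the 10 genes, and 4 had a window of this length ahead of their outermost annotated start.

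Rarb is the textbook example of a retinoid receptor gene that carries a response element for its own protein paired with an RXR, and that element was found in the RefSeq sequence. It is shown here because the level of Rarb is described below.
Rarb, chr15:11336416-11336432, plus strand: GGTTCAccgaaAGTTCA
Capitals mark its direct repeat of half-sites, 5 bases apart, and the element begins at base 25 of the annotated transcript. The letters GGTTCANNNNNAGTTCA, searched on both strands, occurred in 3 of 33469 promoter windows of 300 bases (0.00896%).

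Levels below are the authors' normalized log2 values, and differences are log2 differences between time points with the standard error (SE) and 95% confidence interval of a limma fit. A probe was called changed when its limma p, adjusted by Benjamini-Hochberg over all 10552 probes, was under 0.05. Background on this scale was estimated at 7.31. The arrays detected from 8727 to 9330 of the 22226 targets of the raw table.

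Over the course of the lesion, Rxrg rose steeply between 5 and 14 dpl and stayed high, Rxrb rose by a small amount, Thra rose, and Nr1h3 fell. From 5 to 14 dpl, 4 of the 10 probes passed, 3 higher and 1 lower, where 20.8% of all probes passed (10.7% higher and 10.1% lower). From 5 to 28 dpl the same 4 genes passed in the same directions, 4 of 10 probes, where 44.3% of all probes passed (20.2% higher, 24.1% lower), a share close to that background. From 14 to 28 dpl, 0 of the 10 passed limma's threshold and 2, Rxrb and Thra, had an unadjusted p under 0.05, where 15.0% of all probes passed (7.49% higher and 7.48% lower). In the test for any difference among the time points the same 4 genes passed, where 41.4% of all probes did. The median difference of the 10 probes was 0.04, 0.08 and 0.13 for 14 minus 5, 28 minus 14 and 28 minus 5 dpl, and that of all probes -0.01, -0.01 and -0.03.

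**Figure D1:**
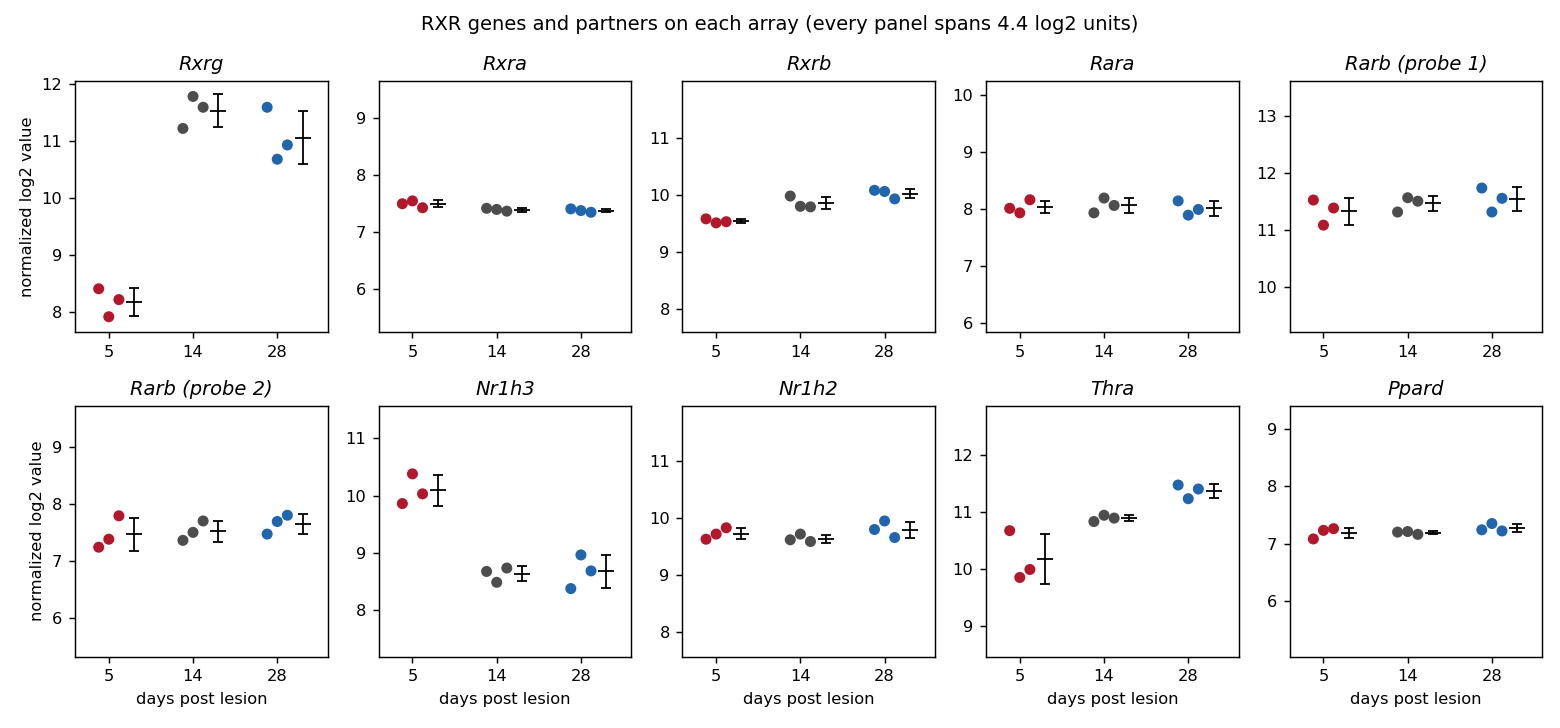
Normalized log2 value (vertical axis) of each of the 10 probes on the 9 arrays, by days post lesion (horizontal axis), with the mean and SD of the 3 arrays beside the points; every panel spans the same number of log2 units. Rxrg rises from a mean of 8.18 at 5 dpl to 11.53 at 14 dpl, Nr1h3 falls from 10.09 to 8.63, and the points of Rara and of both Rarb probes overlap at all time points.

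Rxrg encodes RXR gamma, the RXR with the most restricted tissue distribution, found in oligodendrocyte lineage cells among others. Its levels were 8.41, 7.92 and 8.22 at 5 dpl, 11.22, 11.78 and 11.59 at 14 dpl, and 11.59, 10.68 and 10.93 at 28 dpl. All arrays at 5 dpl lay far below all later ones, while those at 14 and 28 dpl overlapped. The rise from 5 to 14 dpl was 3.35 (SE 0.24, interval 2.80 to 3.89), or 10.2-fold (6.97 to 14.9), with a limma adjusted p = 0.000151, and it was the fifth largest of all probes. The later difference, 28 minus 14 dpl, was -0.47 (interval -1.01 to 0.08, limma adjusted p = 0.233), which did not pass. At 28 dpl Rxrg still stood 2.88 (interval 2.34 to 3.43), or 7.37-fold (5.05 to 10.8), above 5 dpl (limma adjusted p = 4.34e-05).

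Rxrb encodes RXR beta, which most tissues express. The levels were 9.58, 9.51 and 9.53 at 5 dpl, 9.98, 9.80 and 9.79 at 14 dpl, and 10.08, 10.06 and 9.93 at 28 dpl. Every later array was above every array at 5 dpl, and 14 and 28 dpl overlapped. Rxrb rose by 0.32 (SE 0.07, interval 0.16 to 0.47), or 1.24-fold, from 5 to 14 dpl (limma adjusted p = 0.0128) and by 0.48 (interval 0.33 to 0.64), or 1.40-fold, from 5 to 28 dpl (limma adjusted p = 0.000641). The step from 14 to 28 dpl, 0.17 (interval 0.01 to 0.32), did not pass (limma adjusted p = 0.138).

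Rxra encodes RXR alpha. Its probe was dim, with levels of 7.50, 7.55 and 7.43 at 5 dpl, 7.42, 7.40 and 7.37 at 14 dpl, and 7.41, 7.38 and 7.35 at 28 dpl. On each of the 9 arrays this is just above that estimate of background. The arrays at 5 dpl were all above those at 14 and 28 dpl, but the differences of -0.10 (interval -0.22 to 0.01, limma adjusted p = 0.203) and -0.12 (interval -0.23 to 0.00, limma adjusted p = 0.0998) did not pass. Between 14 and 28 dpl it was -0.01 (limma adjusted p = 0.908).

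Whether the RXR genes changed unequally was tested on the difference between their probes within each array, over the 3 time points, with an exact permutation test over all 1680 arrangements of the arrays. Probes of different genes cannot be compared in level, only in how much each moved. Across the 6 pairs of related receptors tested, p was adjusted by Benjamini-Hochberg, and the smallest unadjusted p the design can give is 0.00357. Each p is for any difference among the 3 time points, and the single step printed beside it was not tested by itself. Rxrg rose by 3.45 more than Rxra and by 3.03 more than Rxrb from 5 to 14 dpl (exact permutation adjusted p = 0.0143 for each pair). Rxra and Rxrb also differed, with a change from 5 to 28 dpl 0.60 lower for Rxra, as -0.60 (exact permutation adjusted p = 0.0143). The dim Rxra probe compresses its changes, which this difference includes. With the replicate number as a block, each RXR pair lost its call (exact permutation adjusted p = 0.111). Only 216 arrangements are then left, and the smallest unadjusted p is 0.0278, which Rxra and Rxrb had. Adjusted over 6 pairs, this leaves little room for any pair to pass, so the block cannot decide the question.

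**Figure D2:**
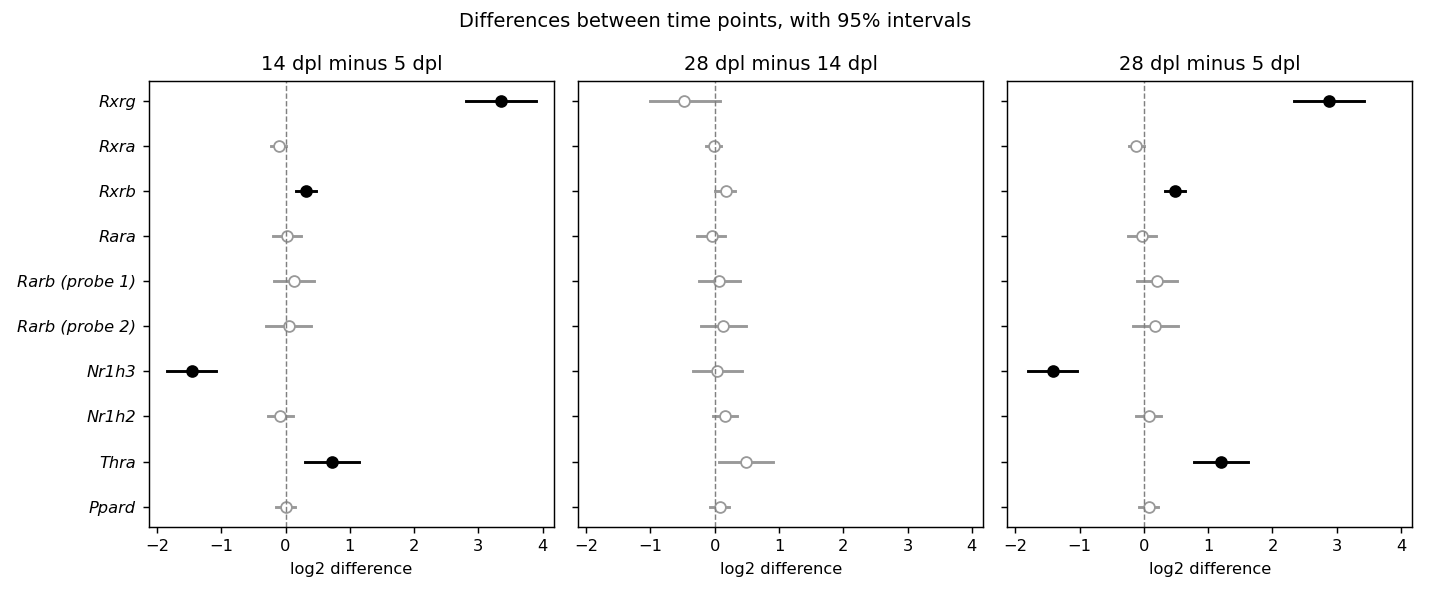
Log2 difference (horizontal axis) of each probe (rows) for 14 minus 5, 28 minus 14 and 28 minus 5 dpl, with 95% confidence intervals of the limma fit; filled symbols have an adjusted p under 0.05. Rxrg, Rxrb and Thra lie to the right of 0 and Nr1h3 to the left in both comparisons with 5 dpl, and no symbol is filled between 14 and 28 dpl.

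The retinoic acid receptor genes did not pass in any comparison. Rara, the broadly expressed alpha form, had levels of 8.01, 7.93 and 8.16 at 5 dpl, 7.93, 8.19 and 8.06 at 14 dpl, and 8.14, 7.89 and 7.99 at 28 dpl. The time points overlapped throughout, and the difference from 5 to 28 dpl was -0.03, with an interval from -0.24 to 0.19 (limma adjusted p = 0.843). The brighter Rarb probe gave 11.52, 11.08 and 11.38 at 5 dpl, 11.31, 11.56 and 11.50 at 14 dpl, and 11.73, 11.31 and 11.55 at 28 dpl. These overlapped too, with a difference of 0.21 from 5 to 28 dpl (interval -0.11 to 0.52, limma adjusted p = 0.265). The dimmer Rarb probe, above background on 8 of 9 arrays, ranged from 7.24 to 7.80, with a difference of 0.18 from 5 to 28 dpl (interval -0.17 to 0.53, limma adjusted p = 0.371). For Rara against the brighter and the dimmer Rarb probe, unequal change did not pass (exact permutation adjusted p = 0.201 and 0.429). Without 5 dpl replicate 1, the first of these was 0.0107 by the same exact permutation test (0.0107 to 0.399 over the alternatives).

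Nr1h3 encodes liver X receptor alpha, an oxysterol receptor prominent in macrophages and liver. Its levels were 9.86, 10.38 and 10.03 at 5 dpl, 8.67, 8.48 and 8.73 at 14 dpl, and 8.37, 8.96 and 8.68 at 28 dpl. All arrays at 5 dpl were above all later ones, and 14 and 28 dpl overlapped. Nr1h3 fell by 1.46 on the log2 scale (a difference of -1.46, SE 0.17, interval -1.84 to -1.08), a 2.75-fold fall, from 5 to 14 dpl (limma adjusted p = 0.000683). It then differed by 0.04 between 14 and 28 dpl (interval -0.34 to 0.42, limma adjusted p = 0.909), and at 28 dpl it was 2.68-fold below 5 dpl (limma adjusted p = 0.00025).

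Nr1h2 encodes liver X receptor beta, the broadly expressed form. The levels were 9.63, 9.72 and 9.83 at 5 dpl, 9.62, 9.72 and 9.59 at 14 dpl, and 9.80, 9.95 and 9.66 at 28 dpl. The time points overlapped, and the difference from 5 to 28 dpl was 0.08 (interval -0.12 to 0.27, limma adjusted p = 0.504). Within arrays, Nr1h3 fell relative to Nr1h2, by a difference of -1.38 from 5 to 14 dpl. Over the 3 time points together the pair changed unequally (exact permutation adjusted p = 0.0268). This call was lost without 28 dpl replicate 1, where the exact permutation test gave an adjusted p = 0.0536 (0.0214 to 0.125 over the alternatives).

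Thra encodes thyroid hormone receptor alpha, the main thyroid hormone receptor of the brain. Its levels were 10.67, 9.85 and 9.99 at 5 dpl, 10.83, 10.94 and 10.89 at 14 dpl, and 11.47, 11.23 and 11.40 at 28 dpl. The arrays of the 3 time points did not overlap, and 5 dpl replicate 1 stood above the other arrays of its group. Thra rose by 1.20 (SE 0.18, interval 0.78 to 1.62), or 2.30-fold, from 5 to 28 dpl (limma adjusted p = 0.001, 1.29e-05 to 0.0054 over the alternatives).

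The intermediate steps of Thra were less firm. The rise of 0.72 (SE 0.18, interval 0.30 to 1.14) from 5 to 14 dpl had a limma adjusted p = 0.0254, and it reached 0.0875 over the alternatives. The call was lost on leaving out either of the lower 5 dpl arrays (0.0766 for replicate 2, 0.0875 for replicate 3) or any 14 dpl array (0.0509, 0.0839 and 0.075), and in a fit of these time points alone (0.0585). The further difference of 0.48 from 14 to 28 dpl (interval 0.06 to 0.90) had a limma adjusted p = 0.117, and it passed on leaving out 5 dpl replicate 1 (0.0045), in a fit of these time points alone (0.00717) and under array weights (0.0242). In RefSeq GRCr8 the 3′ end of Thra overlaps that of Nr1d1 on the opposite strand. Nr1d1, a clock repressor, was at or below background on all arrays at 5 and 14 dpl and reached 7.35, 7.42 and 7.59 at 28 dpl.

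Ppard encodes PPAR delta, a broadly expressed fatty acid receptor. Its levels were 7.08, 7.23 and 7.26 at 5 dpl, 7.20, 7.21 and 7.16 at 14 dpl, and 7.24, 7.35 and 7.22 at 28 dpl. Only 1 of the 9 arrays exceeded background. Its differences, none larger than 0.08, are therefore of a probe not above background, and no level of Ppard can be given.

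Arrays of the time points did not overlap for 5 of the 10 probes between 5 and 14 dpl (Rxrg, Rxra, Rxrb, Nr1h3 and Thra), where this held for 38.1% of all probes. It held for the same 5 genes between 5 and 28 dpl, where the share of all probes was 53.8%. Between 14 and 28 dpl it held for Thra and Ppard, 2 of 10, where the share of all probes was 38.8%.

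Cell type markers moved strongly in the same arrays. In bulk tissue, fewer cells of a type and less RNA per cell cannot be told apart. Marker scores are means of gene-centred log2 values. The counts below stand beside those of all probes, of which 10.7% rose and 10.1% fell from 5 to 14 dpl. From 14 to 28 dpl 7.49% rose and 7.48% fell, and from 5 to 28 dpl 20.2% rose and 24.1% fell. Of 12 measured markers of mature oligodendrocytes, 11 rose from 5 to 14 dpl, 10 from 14 to 28 dpl and 12 from 5 to 28 dpl, and the score was -1.66 to -1.21, then -0.01 to 0.38, then 1.12 to 1.39 at successive time points. Mog, a myelin surface protein, went from a mean of 8.83 to 12.03 and 13.74. Of 7 markers of Schwann cells, which myelinate peripheral nerve and can also enter such lesions, 7 rose from 5 to 14 dpl and 0 passed limma's threshold from 14 to 28 dpl (2 at an unadjusted p under 0.05). Their score ran from -1.47 to -1.34, then 0.13 to 0.77, then 0.57 to 1.11, and Pmp22, a protein of peripheral myelin, from a mean of 11.19 to 14.29 and 14.66. Of 5 markers of oligodendrocyte progenitors, 3 rose (Cspg4, Sox10 and Olig1) and 1 fell (Vcan) from 5 to 14 dpl. The same held from 5 to 28 dpl. Pdgfra did not pass in either comparison (limma adjusted p = 0.0635 and 0.0716). This list therefore did not move in 1 direction.

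Rxrg rose between 5 and 14 dpl, as did the scores of the mature oligodendrocyte, Schwann cell and progenitor lists. Within time points, the order of the arrays by Rxrg was that of the Schwann cell score at 14 and 28 dpl. It was that of the mature oligodendrocyte score at 5 and 14 dpl, and that of the progenitor score at 14 dpl. The endothelial score had this order at every time point, and the astrocyte and neuron scores at 5 dpl. Of 3 endothelial markers, 1 fell and 0 rose from 5 to 14 dpl. Such orders rest on 3 arrays per time point and do not single out a cell type. The part of any of these cell types in the level of Rxrg was not tested.

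Of 16 markers of microglia and macrophages, 4 fell from 5 to 14 dpl, 10 from 14 to 28 dpl and 12 from 5 to 28 dpl, and 0 rose in each of these limma comparisons. Their score was 0.36 to 0.49, then 0.06 to 0.29, then -0.74 to -0.38. The markers did not share one course. Cd14, a coreceptor for endotoxin, had differences of -1.96 from 5 to 14 dpl (limma adjusted p = 0.000865) and -0.47 from 14 to 28 dpl (limma adjusted p = 0.229), and Mrc1, the mannose receptor, of -1.34 (limma adjusted p = 0.000151) and -0.16 (limma adjusted p = 0.375), beside -1.46 and 0.04 for Nr1h3. Adgre1 and C1qc also fell from 5 to 14 dpl, at -0.53 and -0.73 (limma adjusted p = 0.00557 and 0.0494). The call on C1qc there was lost under 8 of 16 alternatives. From 14 to 28 dpl both fell more, at -1.13 and -1.32 (limma adjusted p = 0.000489 and 0.00685). Aif1, a calcium-binding protein of microglia and macrophages, had -0.09 (limma adjusted p = 0.556) and -0.44 (limma adjusted p = 0.0132). P2ry12, Fcgr2b, Itgam and Cx3cr1 had differences of 0.33, 0.34, 0.27 and 0.19 from 5 to 14 dpl, none of which passed. From 14 to 28 dpl they had -1.30, -1.42, -0.76 and -0.47, all of which passed. The call on Itgam was lost under 6 of 16 alternatives. The part of these cells in the level of Nr1h3 was not tested.

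Of 8 astrocyte markers 6 passed, higher, from 5 to 28 dpl, of which Aqp4 was not above background on any array, with a score of -1.11 to -0.39, then 0.06 to 0.22, then 0.60 to 0.75. Gfap, the intermediate filament of astrocytes, rose from a mean of 11.73 to 14.63. Of 13 neuron markers 0 passed limma's threshold in any comparison (1, 3 and 0 at an unadjusted p under 0.05 for 14 minus 5, 28 minus 14 and 28 minus 5 dpl), but 5 dpl replicate 1 stood apart with a score of 1.34, against -0.47 and -0.19 on the other arrays of its group. Snap25, a synaptic protein, was 11.75 there and 7.89 and 8.80 on the others. Thra was also highest on that array within its group, and so were Rxrg, Rxrb and the brighter Rarb probe. The astrocyte, mature oligodendrocyte and endothelial scores were highest there too. Without that array 9 of the 13 neuron markers rose from 14 to 28 dpl and 7 from 5 to 28 dpl in limma, and 0 passed from 5 to 14 dpl. Of all 10552 probes, 1082 rose from 14 to 28 dpl and 2248 from 5 to 28 dpl in that fit. In the same fit the same 4 receptor genes passed from 5 to 14 and from 5 to 28 dpl, and Thra alone passed from 14 to 28 dpl. From 5 to 28 dpl, 1 of 3 endothelial markers fell, where 24.1% of all probes did, and 1 of 5 fibroblast markers rose, where 20.2% did.

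**Figure D3:**
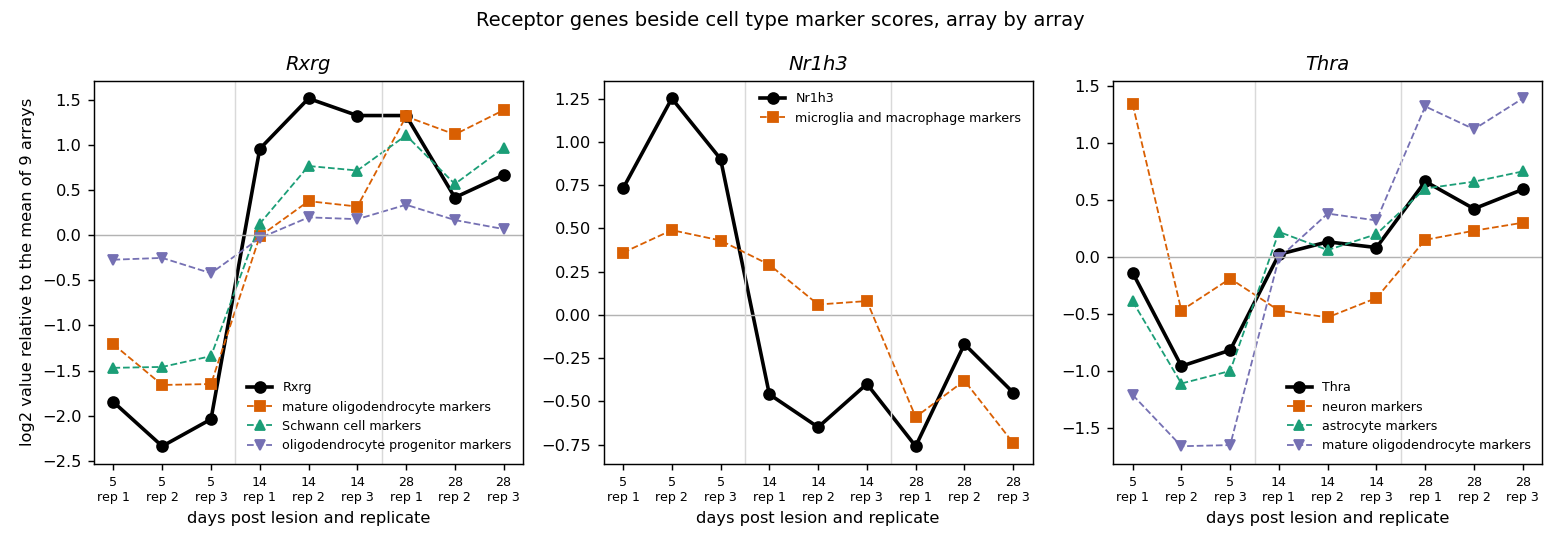
Log2 value relative to the mean of the 9 arrays (vertical axis) of Rxrg, Nr1h3 and Thra (black circles) and of marker scores (coloured symbols) on each array, ordered by days post lesion and replicate (horizontal axis). Rxrg and the mature oligodendrocyte, progenitor and Schwann cell scores are all higher after 5 dpl, Nr1h3 is lower at 14 and 28 dpl than at 5 dpl, the microglia and macrophage score is lowest at 28 dpl, and 5 dpl replicate 1 is high for Thra, astrocyte and neuron markers within its group.

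The genes whose course over the 9 arrays was most like that of a receptor were found by the root mean square difference of gene-centred log2 values among 7574 named genes. For Rxrg these were Dhh (0.343), a hedgehog ligand, Sod3 (0.355), extracellular superoxide dismutase, Scn7a (0.374), a sodium channel gene, Rarres2 (0.377), which encodes chemerin, and Ptn (0.413), which encodes pleiotrophin. Dhh and Scn7a are also on the Schwann cell list. For Rxrb they were Fbxl20 (0.0544), Hsd17b12 (0.0567), Uimc1 (0.0702), Gsto2 (0.073) and Tcta (0.0736), each of which rose by 0.24 to 0.32 from 5 to 14 dpl. For Nr1h3 they were Prdx5 (0.134), a peroxiredoxin, Htr2b (0.153), Igf2r (0.164), Tgm2 (0.175) and Meis3 (0.177), which all fell from 5 to 14 dpl, with differences from -1.18 (Meis3) to -1.66 (Prdx5). For Thra they were Klf9 (0.114), Csad (0.116), Clasp2 (0.119), Dync1li2 (0.128) and Ndp (0.128). Such likeness is a description over 9 arrays that share the same 3 time points.

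Other genes of the pathway were read from 8 lists, with 58 measured genes in all. Among further RXR partners, 2 of 9 listed genes were measured, both dim. Nr4a2, an orphan receptor known for its role in dopamine neurons, was at or below background on the arrays at 5 dpl and rose at least 1.38-fold by 28 dpl (limma adjusted p = 0.0003). Thrb, thyroid hormone receptor beta, rose from a mean of 7.33 to 7.61 (0.28, SE 0.06, limma adjusted p = 0.0048).

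Of nuclear receptors that do not need an RXR, 8 of 29 were measured, and from 5 to 28 dpl 3 rose and 1 fell, 4 of 8, close to the 44.3% of all probes that passed. Nr2f1 (COUP-TFI) was 8.19, 8.06 and 7.92 at 5 dpl, 8.94, 9.30 and 9.35 at 14 dpl, and 9.39, 9.17 and 9.63 at 28 dpl. It rose by 1.14 (SE 0.14, limma adjusted p = 0.00104) by 14 dpl and 1.34 by 28 dpl, with no overlap between 5 dpl and the later arrays. Nr2c1 fell by 0.29 from 5 to 28 dpl (limma adjusted p = 0.00353). Esrrb and Nr1d1 had differences of 0.28 each from a level below background at 5 dpl, which makes them at least 1.04-fold and 1.10-fold.

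Coactivators and corepressors were read against the 44.3% of all probes that passed from 5 to 28 dpl and the 20.8% from 5 to 14 dpl. Of 5 measured coactivators, 0 passed limma's threshold in any comparison (1 at an unadjusted p under 0.05, from 14 to 28 dpl), with Ncoa1, a steroid receptor coactivator, at -0.10 (SE 0.10) and Prmt1, an arginine methyltransferase, at -0.03 (SE 0.06) from 5 to 28 dpl. Of 9 measured corepressors, 2 passed from 5 to 28 dpl, the histone deacetylases Hdac1 at -0.21 and Hdac2 at 0.34. The limma adjusted p of Hdac1 was 0.0189 (0.0146 to 0.0641 over the alternatives), and its call was lost on leaving out 5 dpl replicate 2 or 28 dpl replicate 2 or 3. That of Hdac2 was 0.0482 (0.00717 to 0.157), and its call was lost under 10 of 16 alternatives, among them leaving out any 5 dpl array. The other measured corepressors, among them Ncor1 at -0.59 (limma adjusted p = 0.0797), Gps2 at -0.24 (0.0534) and Tbl1xr1 at -0.16 (0.1), did not pass.

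Of 10 measured liver X receptor targets, 2 rose and 5 fell from 5 to 28 dpl, where 44.3% of all probes passed, and the median was -0.13. Abca1, the transporter that loads cholesterol onto apolipoproteins, was 11.26, 10.99 and 11.03 at 5 dpl, 10.18, 10.37 and 10.39 at 14 dpl, and 9.64, 10.27 and 9.58 at 28 dpl. It fell, with differences of -0.78 from 5 to 14 dpl (limma adjusted p = 0.0134) and -1.26 from 5 to 28 dpl (SE 0.17, limma adjusted p = 0.000512). Abcg1, a sterol exporter, and Pltp, which transfers phospholipid, fell from 5 to 28 dpl, at -0.54 and -0.70. Scd2, a fatty acid desaturase of brain lipid synthesis, went the other way, from a mean of 12.34 to 13.38 and 14.08, a rise of 1.74 by 28 dpl (SE 0.14, limma adjusted p = 3.2e-05). Apoe, the main brain apolipoprotein, was bright throughout and differed by -0.07 (limma adjusted p = 0.464). Its levels of 14.58 to 14.81 lay near 14.93, the highest value of any probe, where a change could be missed.

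The remaining calls on that list were less firm. Apoc1 differed by -0.88 and Srebf1 by 0.67 from 5 to 28 dpl, and Mertk, not above background at 28 dpl, was at least 1.13-fold lower, with limma adjusted p-values of 0.0162, 0.0232 and 0.0234 that reached 0.0577, 0.0777 and 0.0782 over the alternatives. Without 28 dpl replicate 3 none of these passed, leaving 4 calls, 1 higher and 3 lower. The list did not move as one. The 5 that fell did so beside the fall of the microglia and macrophage score given above. Scd2 and Srebf1 rose, as the mature oligodendrocyte and astrocyte scores did. The part of any of these cells in the list was not tested.

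PPAR targets that passed in the comparisons with 5 dpl were all lower later on. Of 12 measured, 6 fell and 0 rose from 5 to 14 dpl, with a median of -0.46, where 10.1% of all probes were lower. From 5 to 28 dpl 7 fell and 0 rose, with a median of -1.03, where 24.1% of all probes were lower. Cd36, a fatty acid and lipoprotein scavenger receptor, was 10.34, 10.89 and 10.88 at 5 dpl, 8.04, 8.10 and 8.52 at 14 dpl, and 7.48, 7.39 and 7.75 at 28 dpl. The differences from 5 dpl were -2.49 at 14 dpl (SE 0.18, limma adjusted p = 0.000151) and -3.16 at 28 dpl, with no overlap between 5 dpl and later arrays. The others that fell by 28 dpl were Fabp4, a fatty acid carrier (a difference of -2.53), Plin2, which coats lipid droplets (-1.94), Angptl4, a lipase inhibitor (-1.79), Ucp2 (-1.24), Acaa2 (-1.23) and Cpt1a, which admits fatty acids to mitochondria (-0.82). Lpl, lipoprotein lipase, differed by -0.26 (limma adjusted p = 0.652). Of the 16 markers of microglia and macrophages, 4 fell from 5 to 14 dpl and 12 from 5 to 28 dpl. The part of those cells in the list was not tested.

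Of 5 measured retinoic acid receptor targets, 1 rose and 2 fell, both from 5 to 14 and from 5 to 28 dpl, where 20.8% and 44.3% of all probes passed. Rarres2, named for its response to retinoids, was 8.38, 8.37 and 8.82 at 5 dpl, 10.97, 11.55 and 11.62 at 14 dpl, and 10.86, 10.62 and 11.16 at 28 dpl. It rose by 2.86 by 14 dpl (SE 0.21, limma adjusted p = 0.000151). Tgm2, tissue transglutaminase (a difference of -1.22, limma adjusted p = 0.000369), and Rarres1 (-1.03, limma adjusted p = 0.00161) fell over the same interval. Cyp26b1, which degrades retinoic acid, was below background at 14 dpl and differed by 0.23 from 5 to 28 dpl (limma adjusted p = 0.146, with a call only without 5 dpl replicate 1 or with array weights).

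Of 7 measured genes that respond to thyroid hormone, 4 rose and 0 fell from 5 to 28 dpl, with a median of 0.71, where 20.2% of all probes were higher. Klf9, a transcription factor induced by the hormone, was 10.36, 9.51 and 9.51 at 5 dpl, 10.19, 10.55 and 10.40 at 14 dpl, and 11.21, 10.86 and 10.90 at 28 dpl. Its arrays at 5 and 14 dpl overlapped through 5 dpl replicate 1, and it rose by 1.20 from 5 to 28 dpl (SE 0.22, limma adjusted p = 0.00267). Thrsp rose by 1.88 (limma adjusted p = 0.00125), Hr, a corepressor of the receptor, by 0.71 (0.000276), and Me1, malic enzyme, by 0.32 (0.0343). The call on Me1 was lost under 6 of 16 alternatives, among them leaving out replicate 2 or 3 of 5 dpl or of 28 dpl (up to 0.115).

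From 5 to 14 dpl only Hr of that list passed (0.46, limma adjusted p = 0.00673), where 10.7% of all probes were higher. Without 5 dpl replicate 1, 4 of 7 rose. From 14 to 28 dpl 0 of 7 passed limma's threshold (5 at an unadjusted p under 0.05), and 3 rose without that array. The array is the one high in neuron markers, and its astrocyte, mature oligodendrocyte and endothelial scores were also the highest of its group. The part of any of these cell types in these values was not tested.

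**Figure D4:**
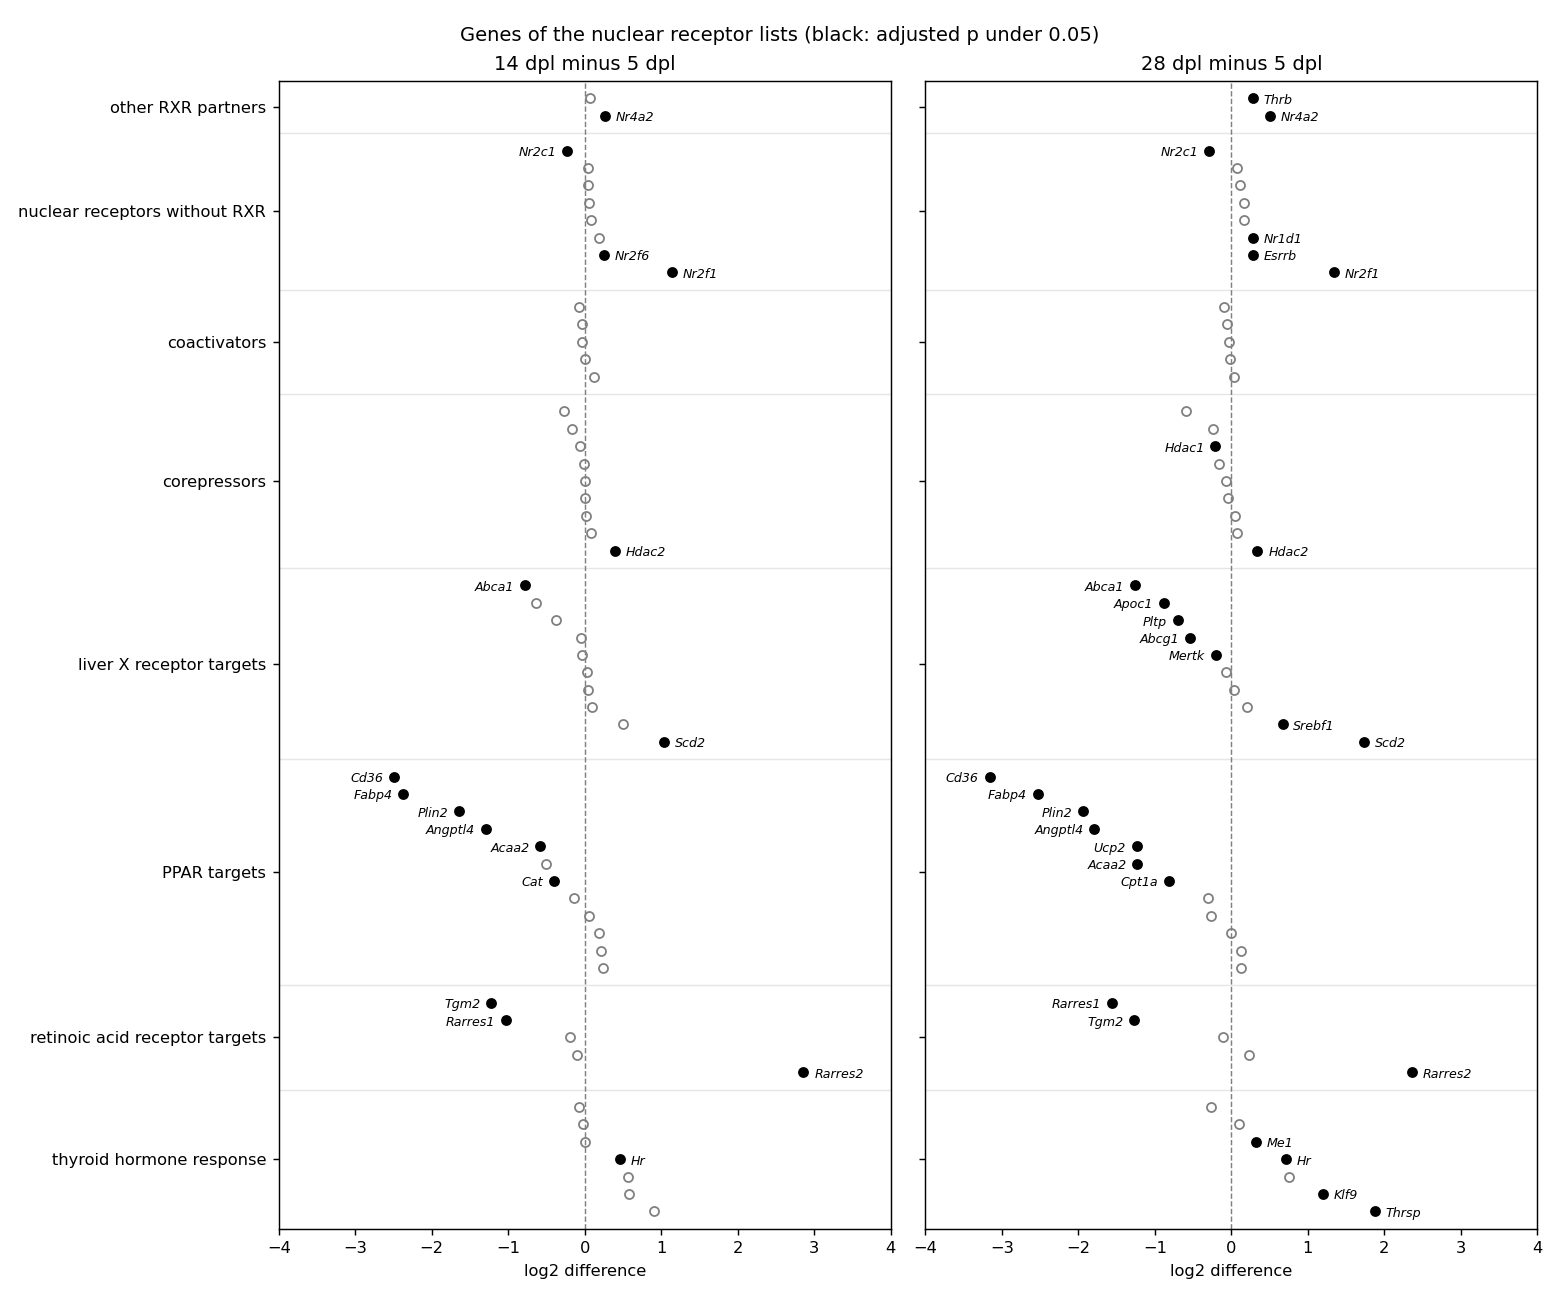
Log2 difference (horizontal axis) of every measured gene of the 8 lists (rows, ordered by difference within each list) for 14 minus 5 dpl and 28 minus 5 dpl; filled symbols, labelled by gene, have a limma adjusted p under 0.05. PPAR targets that pass lie to the left of 0, thyroid hormone response genes that pass lie to the right, and 0 coactivators pass.

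Between 14 and 28 dpl the counts on the other lists were small and shifted with single arrays. Of all probes, 7.49% were higher and 7.48% lower in this comparison. Of PPAR targets 1 rose and 4 fell, with 1 call left on leaving out replicate 1 of either time point, 2 on leaving out replicate 3 of either, and 3 on leaving out 14 dpl replicate 2. Cpt1a fell by 0.68 (limma adjusted p = 0.002). Of liver X receptor targets Scd2 rose by 0.70 (limma adjusted p = 0.011) and Abcg1 fell by 0.62 (limma adjusted p = 0.00429), and these calls held under the alternatives tried. The calls on retinoic acid receptor targets (Cyp26b1, at least 1.24-fold higher, and Rarres1 at -0.53) were both lost on leaving out any 1 of the arrays at 14 or 28 dpl.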

How the data were processed

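RNA of 9 laser-captured lesions was hybridised to Illumina rat arrays, 3 per time point, which the series' design text calls biological replicates. No label says if they were separate animals, and p-values then cover the spread between arrays, which may be technical.

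The authors' normalized table holds 10552 probes on a log2 scale, deposited with the same set of values on every array, as quantile normalization gives (median 8.31); for its transform and filter, nothing is stated in the labels or headers. A raw table of 22226 targets, with a detection p-value per target and array per the file headers, shares 0 identifiers with it and served for detection (detection p at most 0.01, 8727 to 9330 targets per array) and for the background, taken as the highest of 7.25 to 7.31 over the arrays, the log2 value at the rank of the undetected targets. Its 9 columns of signal intensity were not used here. Near background the log2 scale is compressed, so differences of dim genes are understated.

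GEO's platform annotation named 7679 probes, each with 1 symbol, and left 2873 unnamed. RefSeq (GRCr8) matched the gene identifiers of 7670 probes. A gene with several probes outside the receptors was represented by the brightest.

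limma 3.58.1 under R 4.3.3 fitted a mean per time point on all 9 arrays over all probes (lmFit, eBayes), with Benjamini-Hochberg adjustment and a threshold of 0.05. Named genes are the receptors, the 5 genes nearest to each receptor that passed in a pairwise comparison, up to 4 genes per pathway list with the smallest p for any difference, and fixed marker genes. Other genes of the lists were named after their values were seen. The receptors and lists were chosen with earlier results of these data known. Replicate numbers did not pair the samples: correlations of deviations between same-numbered arrays ran from -0.29 to 0.15. On simulated data for 14 minus 5 dpl over 10552 probes, 96% of 100 probes changed by 1 and 71% of 100 changed by 0.5 were recovered, with 11 false calls. A gene below background on all arrays of a time point is given as "at least", from the background. Alternatives were each array left out, the replicate number as a block, only the time points compared, filters on dim probes, cyclic loess, an intensity trend and array weights. The number of arrays limits the precision.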

Additional observations from a re-analysis of the deposited data

How the results depend on the processing

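Rxrg, Rxrb and Nr1h3 kept their direction and their call from 5 to 14 and from 5 to 28 dpl under all 16 alternatives, as did Thra from 5 to 28 dpl. Rxrg ranged from 3.22 to 3.5 and Nr1h3 from -1.58 to -1.32 between 5 and 14 dpl. With an array left out, 1285 to 2579 probes were called from 5 to 14 dpl and 836 to 2050 from 14 to 28 dpl (main counts 2193 and 1579). The low counts of the first comparison came on leaving out 14 dpl replicate 2 (1285) or 3 (1370). Those of the second came on leaving out replicate 1 of 14 dpl (836) or of 28 dpl (957), or replicate 3 of 14 dpl (1013) or of 28 dpl (863); each such fit holds fewer arrays. In the second comparison 0 to 1 receptor probes passed with an array left out, and 1, Thra, in a fit of the compared time points alone and under array weights. Unequal change passed in 3 to 5 of 6 pairs with an array left out. With the replicate number as a block, where 216 arrangements are left, 0 of 6 pairs passed (exact permutation adjusted p of 0.111 for each RXR pair and 0.125 for Nr1h3 and Nr1h2). In that test 1 pair, Rxra and Rxrb, had an unadjusted p under 0.05, at 0.0278, the smallest these arrangements can give. The block changed no call on a receptor in limma. Over the pathway lists, 30 of 58 genes differed among time points (22 to 31 with an array left out, 24 to 32 otherwise). In the main fit 41.4% of all probes did. Signal close to background limits Rxra, the dimmer Rarb probe and Ppard.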
